A study of Sus scrofa with 12 samples.

Results

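The smooth muscle and cardiac actin genes ACTA2, ACTG2 and ACTC1 were followed in interstitial cells of the porcine aortic valve, a fibroblast-like population of the leaflet. They were measured on Affymetrix porcine arrays by every probe set to which the platform annotation gives one of these symbols alone. Of 6765 genes named by such probe sets these are 3, on 4 of 23999 probe sets: 1 for ACTA2, 2 for ACTG2 and 1 for ACTC1. The identifiers of the probe sets stand on the plot of all actin probe sets. All 4 passed the filter on low values, which asked for a log2 value over 4 in at least 3 of the 12 arrays and kept 17638 probe sets.

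The cells came from the aortic valves of adult pigs by digestion with collagenase II. P0 cells had neither been passaged nor treated. P2 cells had gone through 2 passages on tissue culture polystyrene, and their medium held 1% fetal bovine serum until day 3. They were left untreated or received porcine TGF-β1 (5 ng/ml) during 8 h or 24 h. Each of the 4 groups held 3 biological replicates, and the passaged groups shared the plastic, the passages and the low serum, so the comparison with P0 joins all of these.

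Actins are the proteins of the thin filaments on which myosin pulls. ACTA2 encodes α-smooth muscle actin, the usual marker of the myofibroblast, the contractile fibroblast that forms in wounds, in fibrotic valves and on stiff culture plastic, and TGF-β1 is a known inducer of it. ACTG2 encodes the γ-smooth muscle actin of visceral smooth muscle, and ACTC1 the α-cardiac actin of heart muscle. Many cells carry these isoforms beside the cytoplasmic actins ACTB and ACTG1, which every cell uses.

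Each array had 16569 to 17255 probe sets above a log2 value of 4, and arrays of 1 group correlated at 0.989 to 0.995. None of the 10 measured markers of interstitial cells and fibroblasts lay below the control level in every array. VIM, of that list, was high in every array, at 15.44 to 15.65, but other members moved. From P0 to untreated P2 cells the mean of S100A4 went from 7.30 to 12.40, whereas THY1 went from 13.88 to 11.99 and DCN from 14.98 to 13.34. The summed linear level of the list was 160400 to 167300 in P0 and 110200 to 120200 in untreated P2 cells. The control level, 4.58, is the 95th percentile of the 64 reporter controls. Where a group mean lay under it, the fold printed is the smallest that level allows ("at least"). Markers of macrophages and other leukocytes were also present in P0, but CD3E and CD2 of that list lay below the control level in every array. The summed linear level over its 10 measured markers ran from 10700 to 15550 in P0 and from 880.1 to 1238 in untreated P2 cells. The part of macrophages and other leukocytes in the differences between P0 and P2 was not tested. Fewer cells of a type and less RNA per cell cannot be told apart in these samples.

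All 4 actin probe sets changed between P0 and untreated P2 cells, 3 upward and 1 downward. Among all probe sets 59.4% were called in this comparison, 33.6% upward and 25.8% downward, at an adjusted p under 0.05 in limma. The P0 and untreated P2 arrays did not overlap for any of the 4, against 65.1% of all tested probe sets. With a background of this size, the count of 4 does not set the actins apart.

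ACTA2 rose in culture and stood near the top of the array's range in every P2 array. Its log2 level was 12.63, 12.02 and 12.65 in the P0 arrays and 15.24, 15.36 and 15.38 in untreated P2 cells. It was 15.19, 15.34 and 15.43 after 8 h of TGF-β1 and 15.14, 15.35 and 15.25 after 24 h. Every P2 array lay above every P0 array, and the 3 P2 groups overlapped. The myofibroblast actin rose 7.42-fold from P0 to untreated P2, a log2 difference of 2.89 ± 0.159 (SE, 3 arrays per group; 95% confidence interval 2.54 to 3.24; limma adjusted p = 3.04e-08).

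TGF-β1 gave no further rise of ACTA2 that these arrays could resolve. The log2 difference from untreated cells was -0.01 at 8 h (95% confidence interval -0.35 to 0.34; limma adjusted p = 0.994) and -0.08 at 24 h (-0.43 to 0.27; adjusted p = 0.836). The intervals do not show that the levels are equal, but a rise of more than 0.34 at 8 h or 0.27 at 24 h lies outside them. Its signal was close to the brightest on the array: in the P2 arrays it stood 0.46 to 0.78 below the brightest probe set, and between 15 and 40 probe sets were brighter, against 491 to 736 in P0. Of the 64 probe sets over log2 15 in untreated cells, a level chosen after the values were seen, limma called 0 at 8 h and 0 at 24 h (0 and 3 at an unadjusted p under 0.05). Of the 122 at log2 14 to 15 it called 3 and 7, which is 2.46% and 5.74%. Whether a ceiling of the signal limits the ACTA2 comparison was not tested.

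**Figure D1:**
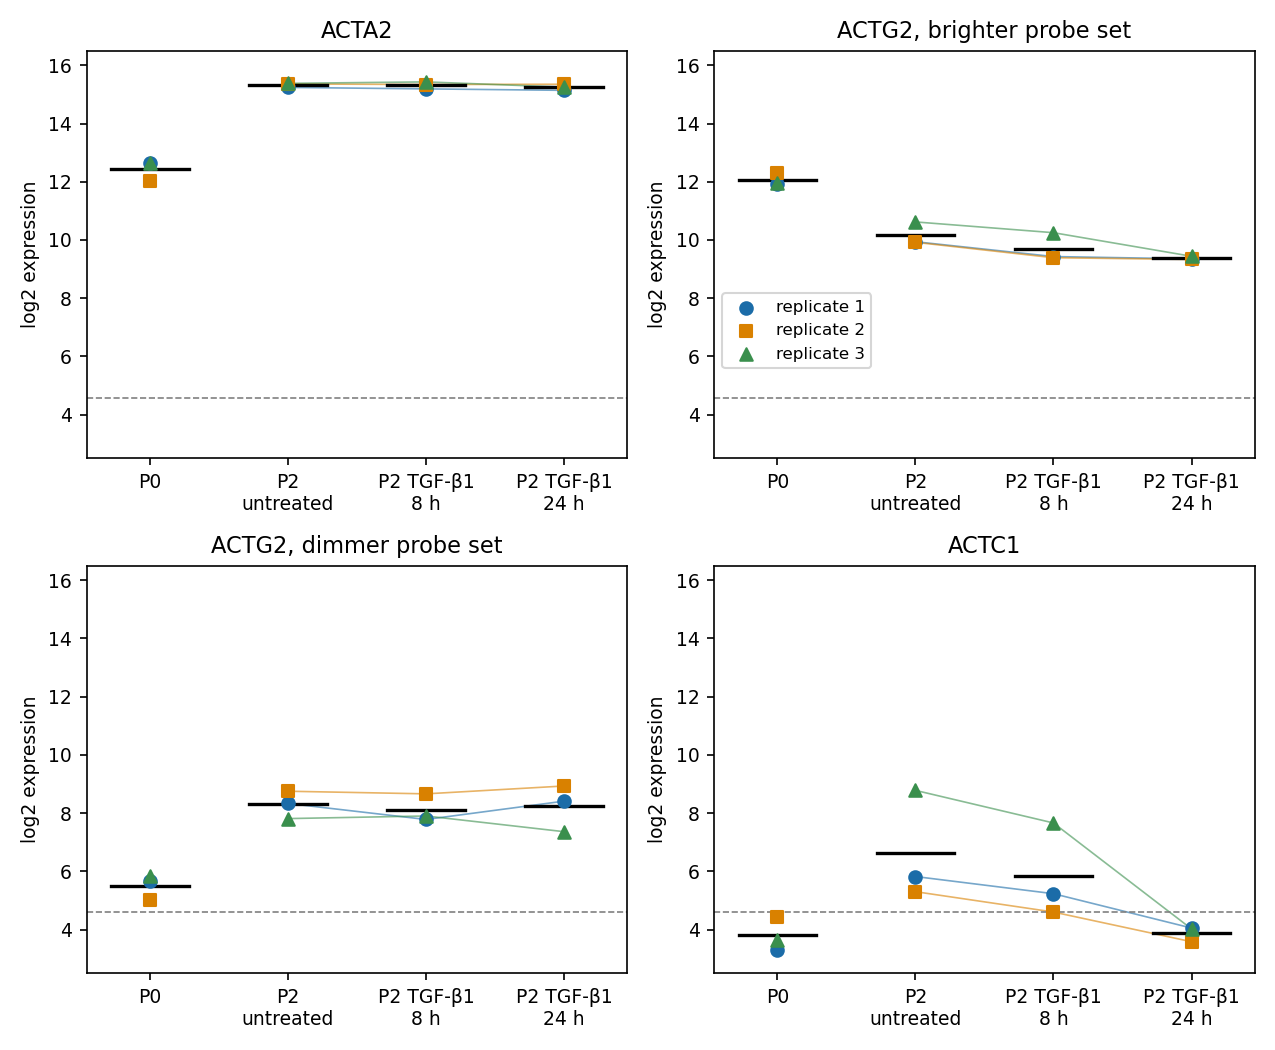
Log2 expression (vertical axis) of the 4 actin probe sets in the 12 arrays, by group (horizontal axis); each point is 1 array, its marker gives the replicate number, lines join equal numbers among the P2 groups, black bars are group means, and the dashed line is the control level of 4.58. ACTA2 lies between 15.14 and 15.43 in all P2 arrays, the 2 ACTG2 probe sets move in opposite directions in culture, and replicate 3 is the highest for ACTC1 in untreated and 8 h cells.

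ACTG2, the visceral smooth muscle isoform, was read by 2 probe sets that moved in opposite directions in culture. The brighter one, which represents the gene here because its mean over the 12 arrays is the higher, stood at 11.91, 12.31 and 11.94 in P0 and at 9.94, 9.92 and 10.62 in untreated P2 cells. All P0 arrays were above all P2 arrays. It fell by 1.90 on the log2 scale, with an SE of 0.240, and was 3.72-fold lower in P2 (limma adjusted p = 2.55e-05).

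The dimmer ACTG2 probe set stood at 5.68, 5.00 and 5.85 in P0 and at 8.33, 8.75 and 7.81 in untreated P2 cells. Here all P2 arrays were above all P0 arrays. It rose 6.91-fold, a log2 difference of 2.79 ± 0.393 (limma adjusted p = 6.25e-05). Opposite calls within a gene were not rare in this comparison: of 877 genes with several called probe sets, 83 (9.46%) had calls in both directions. The mean of the ACTG2 probe sets gave a log2 difference of 0.45 (adjusted p = 0.0519), so neither a rise nor a fall of ACTG2 as a whole can be read from the arrays. Which transcripts each probe set reads was not tested.

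Neither ACTG2 probe set was called under TGF-β1 without a replicate block or trend with robust moderation. The brighter one was 9.43, 9.39 and 10.25 at 8 h and 9.35, 9.33 and 9.44 at 24 h. At 8 h its arrays overlapped those of untreated cells, with a log2 difference of -0.47 (95% confidence interval -0.99 to 0.06; limma adjusted p = 0.357). At 24 h all 3 arrays were below all untreated ones, with -0.58, -0.59 and -1.18 for replicates 1, 2 and 3.

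This 24 h difference of -0.78 ± 0.240 missed the threshold (limma adjusted p = 0.0669). Unblocked limma with trend and robust moderation gave an adjusted p of 0.0466. With replicate number as a block in the 9 P2 arrays, whose numbers pair the samples, the SE was 0.153 and the adjusted p 0.0121. Without the arrays numbered 3 of the P2 groups the unblocked difference was -0.59 (adjusted p = 0.0715). The dimmer probe set, at 7.78, 8.66 and 7.90 at 8 h and 8.41, 8.93 and 7.36 at 24 h, overlapped the untreated arrays at both times. Its log2 differences from untreated cells were -0.18 (95% confidence interval -1.04 to 0.67; adjusted p = 0.891) and -0.06 (-0.92 to 0.80; adjusted p = 0.954).

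ACTC1, the cardiac isoform, was the most variable of the 3. Its log2 level was 3.31, 4.43 and 3.65 in P0, all below the control level. In untreated P2 cells it was 5.82, 5.30 and 8.78, in which replicate 3 stood well above the others. After 8 h of TGF-β1 it was 5.23, 4.60 and 7.66, again with replicate 3 highest. After 24 h it was 4.05, 3.58 and 4.02, back below the control level in all 3 arrays.

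ACTC1 was at least 4.14-fold higher in untreated P2 cells than in P0 (log2 difference 2.83 ± 0.864; limma adjusted p = 0.0135). This bound rests on untreated replicate 3, and without it was 1.97-fold. Without the arrays numbered 3 of the P2 groups the log2 difference was 1.76 (adjusted p = 0.00143), and without the untreated replicate 3 alone it was also 1.76 (adjusted p = 0.0495). When low values were replaced by the control level, the difference was 2.05 and was no longer called (adjusted p = 0.10).

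Cells given TGF-β1 for 24 h had at least 4.14-fold less ACTC1 signal than untreated cells, and the 3 arrays of each group did not overlap. The log2 difference of -2.75 ± 0.864 missed the threshold (limma adjusted p = 0.0738). Untreated replicates 1, 2 and 3 lay 1.24, 0.72 and 4.19 above the control level, under which all 24 h arrays lay. Without untreated replicate 3 the bound was 1.97-fold. With replicate number as a block in the 9 P2 arrays the SE was 0.561 and the adjusted p 0.0144. Without the arrays numbered 3 the difference was -1.75 and passed unblocked (adjusted p = 0.0307), and without the untreated replicate 3 alone it was -1.68 and did not (adjusted p = 0.232).

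At 8 h the ACTC1 arrays overlapped those of untreated cells, with a log2 difference of -0.80 (95% confidence interval -2.69 to 1.08; limma adjusted p = 0.729) and -0.59, -0.71 and -1.12 by replicate. Between 8 h and 24 h ACTC1 was at least 2.37-fold lower at the later time, without overlap, but the difference of -1.95 was not called (adjusted p = 0.525) and ran from -2.56 to -1.03 when arrays were left out. The 8 h replicates lay 0.65, 0.01 and 3.08 above the control level, and without 8 h replicate 3 the bound was 1.26-fold. The spread of ACTC1 within groups, a pooled SD of 1.28 over 12 arrays, was larger than that of 99.9% of the tested probe sets, for which the median was 0.20.

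In the TGF-β1 comparisons limma called 0 of the 4 actin probe sets at 8 h, against 5.07% of all probe sets, and 0 at 24 h, against 8.49%. At an unadjusted p under 0.05 the counts were 0 and 2, the brighter ACTG2 probe set and ACTC1. With the replicate block in the P2 arrays limma called these 2 at 24 h (adjusted p = 0.0121 and 0.0144), beside 3519 of all 17638 probe sets. At 8 h the blocked fit called none of the 4, and 2200 of all. The groups did not overlap for 0 of 4 at 8 h and 2 of 4 at 24 h, against 25.5% and 25.3% of all probe sets. Between 24 h and 8 h none was called (1 at an unadjusted p under 0.05), against 0.232% of all, and 1 of 4 did not overlap, against 13.7%.

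**Figure D2:**
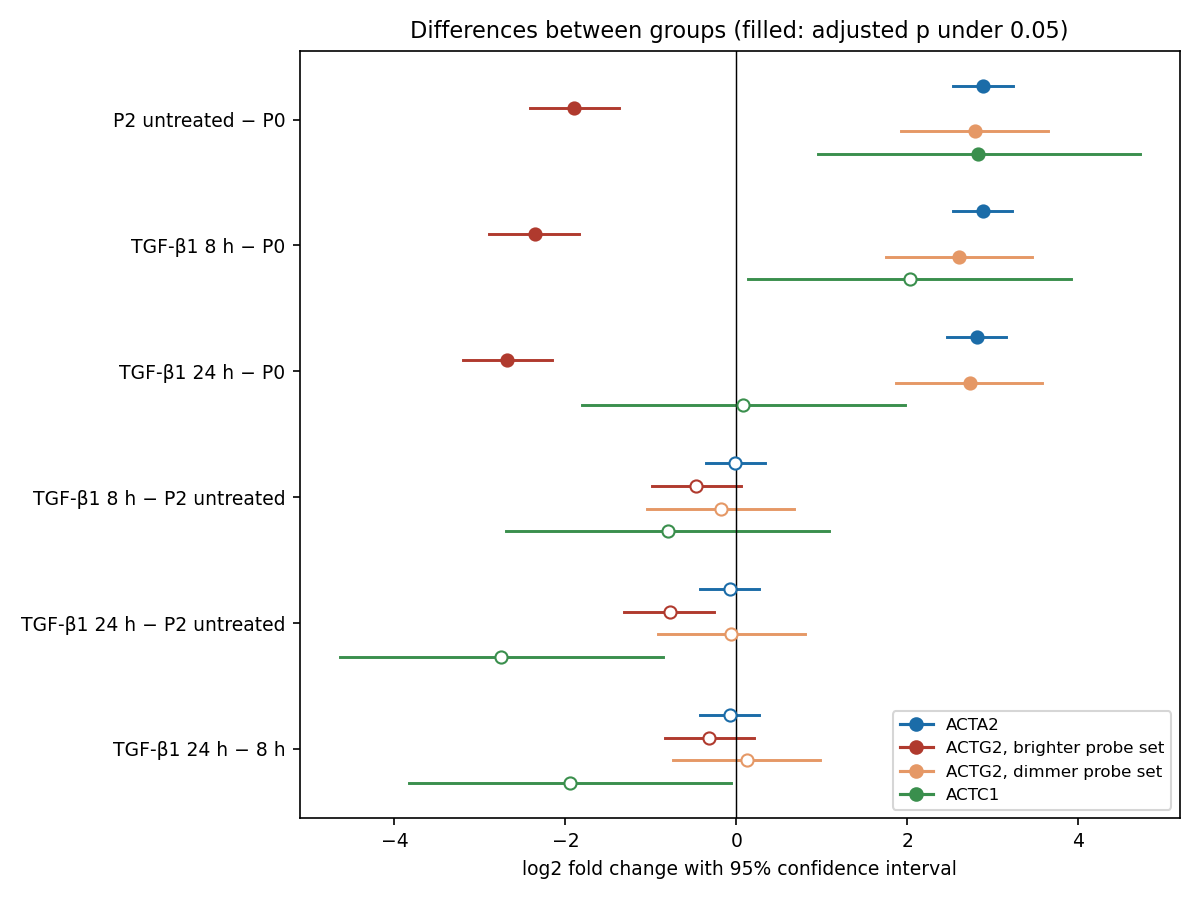
Log2 fold change (horizontal axis) with its 95% confidence interval for the 4 actin probe sets in 6 comparisons (vertical axis); filled points passed an adjusted p under 0.05. The fit shown has no replicate block. The differences from P0 are large and of both signs, while those among the P2 groups are unfilled, with ACTA2 close to 0 and ACTC1 at -2.75 for 24 h against untreated cells.

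Set against P0, the cells given TGF-β1 differed in the same directions as untreated cells for ACTA2 and for each ACTG2 probe set. These comparisons share the P0 arrays with the first one. At 8 h, 3 of the 4 probe sets were called (2 higher, 1 lower), against 61.3% of all (34.6% higher, 26.7% lower), and 4 of 4 did not overlap, against 67.8%. At 24 h, 3 were called (2 higher, 1 lower), against 62.5% (35.6% higher, 26.9% lower), and 3 of 4 did not overlap, against 65.6%. The log2 differences from P0 at 8 h and 24 h were 2.89 and 2.81 for ACTA2, -2.36 and -2.68 for the brighter ACTG2 probe set, and 2.60 and 2.73 for the dimmer one, all called. ACTC1 was at least 2.37-fold above P0 at 8 h (log2 difference 2.03, limma adjusted p = 0.0595), or 1.26-fold without 8 h replicate 3. The replicate block over 12 arrays gave an adjusted p of 0.0251. As the numbers do not pair P0 with P2, that value does not settle the call. At 24 h both groups lay below the control level.

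Within the passaged cells, the brighter ACTG2 probe set and ACTC1 were high and low in the same arrays. Over the 9 P2 arrays their log2 levels correlated at r = 0.956, and at 0.973 after group means were removed. Over the 6 P2 arrays numbered 1 and 2 the correlation of the levels was 0.812. The dimmer ACTG2 probe set went the other way. Over the 9 P2 arrays it correlated with ACTC1 at -0.375, and at -0.548 after group means were removed. These are descriptions over arrays that share replicate numbers and processing. The arrays of replicate 3 in untreated and 8 h cells held the highest values of ACTC1 and the brighter ACTG2 probe set, while at 24 h they did not stand out.

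**Figure D3:**
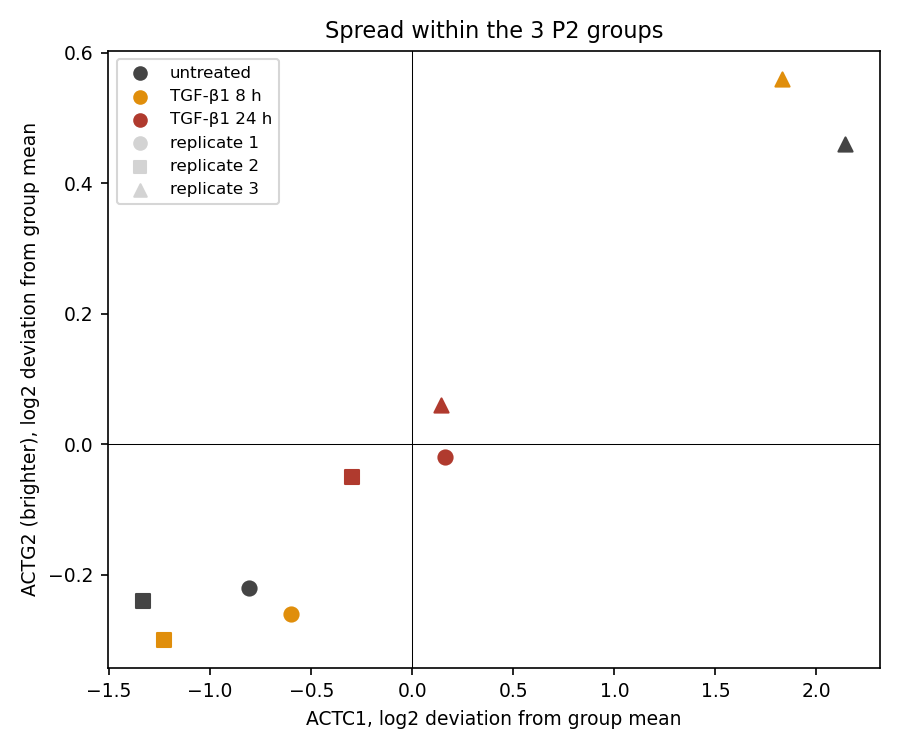
Deviation of each P2 array from its group mean (log2) for ACTC1 (horizontal axis) and the brighter ACTG2 probe set (vertical axis); colour gives the group and marker the replicate number. Replicate 3 of untreated and of 8 h cells lies far to the upper right, and the 24 h arrays lie close to the origin.

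Some markers of other cells moved with these arrays. The 15 measured endothelial markers had a mean log2 level of 6.68, 6.97 and 5.35 in untreated replicates 1, 2 and 3, of 6.57, 6.81 and 5.38 at 8 h, and of 6.42, 6.52 and 5.15 at 24 h, so replicate 3 was low in all P2 groups, 24 h included. Their summed linear level ran from 1238 to 6252 in untreated cells, 1661 to 5394 at 8 h, 1814 to 3945 at 24 h and 3453 to 4462 in P0, with KDR below the control level in every array. CDH5, the adhesion protein of endothelial junctions, was 9.96, 10.79 and 6.72 in untreated cells. The members differed in this. ERG was 8.67, 8.87 and 7.71 in untreated cells, lowest in replicate 3, but 9.60, 9.37 and 9.59 at 8 h. ESAM was 6.69, 6.29 and 6.24 in untreated cells, with replicate 3 lowest but close to replicate 2. From P0 to untreated P2 cells the mean of CDH5 went from 7.96 to 9.16. SELE went from 8.34 to 3.10 and LYVE1 from 6.30 to 3.59, both to under the control level. The part of endothelial cells in the ACTC1 and ACTG2 values was not tested.

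Of 15 measured cardiac and striated muscle markers, 9 lay below the control level in every array (TNNT2, TNNI3, TNNC1, MYL2, MYL4, TTN, NPPA, RYR2 and CKM), among them 3 troponin subunits. MYH7 lay below it in 6 arrays and DES in 8. MYL3, ACTN2, NPPB and TCAP lay above it in all 12, with MYL3, a ventricular myosin light chain, at 5.41 to 5.88. The summed linear level of the list was 344.7 to 400.5 in P0, 342.2 to 345.3 in untreated P2 cells, 367.0 to 404.2 at 8 h and 325.3 to 358.6 at 24 h.

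Of 10 measured smooth muscle markers, CASQ2 lay below the control level in every array, phospholamban, PLN, in 9 of 12 and the intermediate filament gene DES in 8 of 12. The summed linear level of the list was 3604 to 3964 in P0, 5978 to 6152 in untreated cells, 6846 to 7518 at 8 h and 6323 to 7236 at 24 h. Its members did not move one way. Calponin, CNN1, went from a mean of 10.21 in P0 to 11.63 in untreated P2 cells, whereas RGS5, a pericyte and smooth muscle regulator of G-protein signalling, went from 8.25 to 5.50, PLN from 5.95 to 3.97, which is under the control level, and the small heat shock protein HSPB6 from 9.77 to 8.07. The part of smooth muscle cells or pericytes in the fall of the brighter ACTG2 probe set was not tested.

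The genes with the most similar course over the 12 arrays differed between the probe sets. For ACTA2 they were PRDX1, PSMB2 and MRPS14 (Pearson r = 0.997 each), with PAICS and DNAJC5 at 0.996. In all, 1465 genes exceeded r = 0.9, as many genes separate P0 from P2. For the brighter ACTG2 probe set they were SMARCA2 (0.991), EPB41L2, HSPB6 and PAM (0.986 each) and SPARCL1 (0.985), with 560 genes over 0.9, and HSPB6 is itself on the smooth muscle list. For the dimmer ACTG2 probe set the nearest was FNTA (0.995), with 845 genes over 0.9. For ACTC1 the nearest was C2H19orf66 (0.922), the only gene over 0.9, followed by FDXR, NPC2, DONSON and PPP1R21 (0.893 to 0.873).

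After group means were removed over the 9 P2 arrays, other genes came first. ACTA2 was nearest to TRA2B (r = 0.983), NPTN, GPM6B, EMC4 and PDIA4, all at 0.962 or above. The brighter ACTG2 probe set was nearest to MORC3 (0.974), ACTC1 (0.973), CXCL16, LOC100152407 and LIN52. The dimmer ACTG2 probe set was nearest to KLF1 (0.979), IL1B (0.977) and FNTA (0.974). ACTC1 was nearest to COX7A1 and SPR (0.980 each), HTRA4 (0.976), the brighter ACTG2 probe set (0.973) and GADD45G (0.971). With 9 arrays and 6014 genes, such values describe these arrays only.

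The cytoplasmic actins were also measured. ACTB, on its brighter probe set, had a log2 difference of 0.57 ± 0.169 from P0 to untreated P2 (limma adjusted p = 0.0115). It lost the call without P0 replicate 2 (0.45; adjusted p = 0.0531), without untreated replicate 2 (0.46; 0.0533), without the P2 arrays numbered 3 (0.52; 0.0514) and with the mean of its probe sets (0.37; 0.0592). ACTG1 had 0.35 ± 0.0931 (adjusted p = 0.00667). Of 7 tested probe sets of these genes, 5 were called higher and none lower, against 33.6% and 25.8% of all probe sets. ACTA1, the skeletal isoform, was on no probe set with a single symbol. Under TGF-β1 limma called 0 of the 7 at 8 h, against 5.07% of all probe sets, and 0 at 24 h, against 8.49% (0 and 0 at an unadjusted p under 0.05). ACTB and ACTG1 differed from untreated cells by -0.01 and 0.06 at 8 h and by -0.03 and 0.04 at 24 h.

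**Figure D4:**
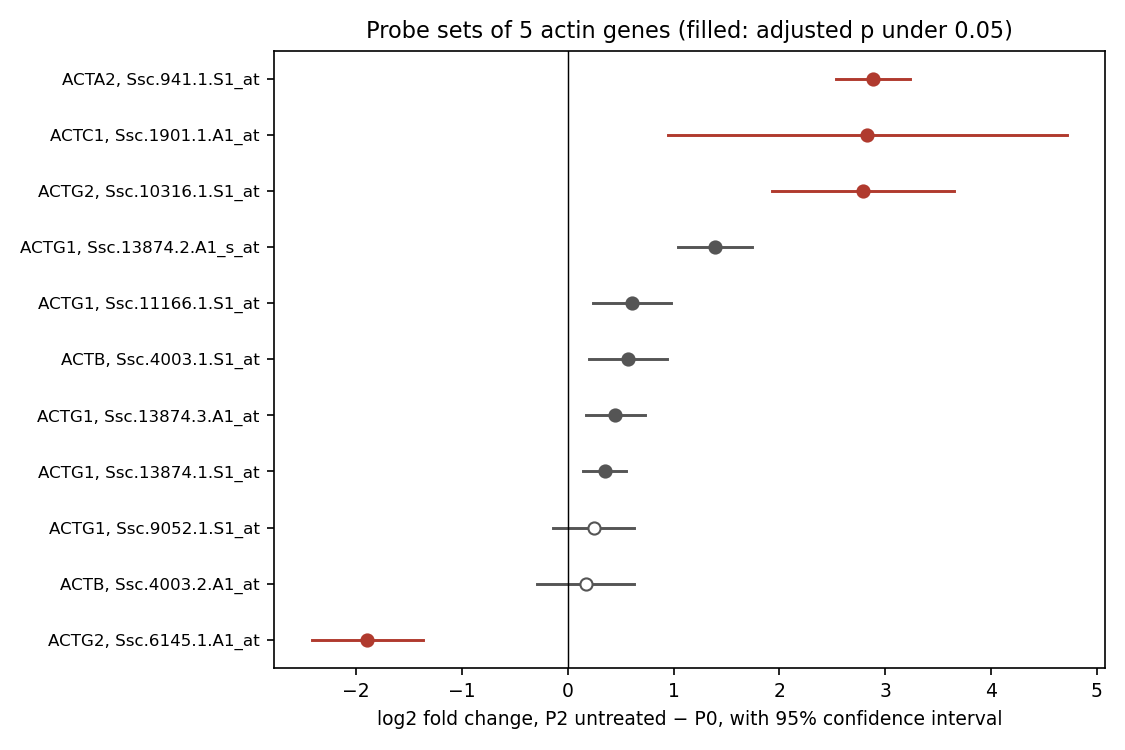
Log2 fold change from P0 to untreated P2 cells (horizontal axis) with its 95% confidence interval for every tested probe set of ACTA2, ACTG2, ACTC1, ACTB and ACTG1 (vertical axis); filled points passed an adjusted p under 0.05. ACTA2, ACTC1 and the dimmer ACTG2 probe set lie near 2.8 to 2.9 upward, the brighter ACTG2 probe set at -1.90, and the cytoplasmic actins between 0.17 and 1.39. The value of 1.39 belongs to an ACTG1 probe set whose P0 mean, 3.39, lay under the control level (at least 1.15-fold higher).

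The genes that make, fold and move actin filaments were read from lists of their own. Of the genes tested, 66.3% were called between P0 and untreated P2, 42.1% higher and 24.2% lower, and the median log2 difference over all genes was 0.20. Serum response factor, the transcription factor that drives the muscle actin genes, was on no probe set with a single symbol. Of 12 genes listed for this factor and its cofactors only 4 were measured. Among these, 3 were higher and none lower (median 1.22): FHL2 by 3.25 ± 0.135, TEAD1 by 1.41 ± 0.155 and TEAD4 by 1.03 ± 0.253. The activity of serum response factor was not tested. The smooth muscle cofactor MYOCD had a difference of -0.36 and was not called.

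The contractile partners of smooth muscle actin were higher in 12 of 13 tested genes and lower in none (median 1.42). The tropomyosins TPM1 and TPM2, which lie along the filament, rose by 3.14 ± 0.144 and 3.12 ± 0.198, the regulatory myosin light chain MYL9 by 2.62 ± 0.205 and caldesmon, CALD1, by 2.23 ± 0.113. Of the non-muscle myosins on the list, MYH9 rose by 1.45 ± 0.128 and MYH10 was not called. All 12 tested genes of the actin folding list were higher (median 0.82): 11 subunits of the chaperonin and prefoldin, which fold new actin, and the phosducin-like cofactor PDCL3. Examples are the prefoldin subunit PFDN4 at 1.33 ± 0.162 and the chaperonin subunit CCT6A at 1.13 ± 0.148.

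Filament turnover genes were more mixed, with 12 of 20 higher and 3 lower (median 0.57). Gelsolin, GSN, which severs filaments, fell by 3.51 on the log2 scale, with an SE of 0.361, while the capping protein CAPG rose by 2.14 ± 0.160 and cofilin 2, CFL2, by 1.83 ± 0.114. CAP2, an actin monomer-binding protein, was at least 2.09-fold lower. Among nucleators and elongation factors 11 of 15 were higher and 2 lower (median 0.69), with the Arp2/3 subunits ACTR3 at 1.76 ± 0.119 and ARPC2 at 1.44 ± 0.142, and with WASF1 at least 1.14-fold lower. Of 7 genes listed for actin maturation and modification, 2 were tested. MSRB2 fell by 0.88, with an SE of 0.152, and whether it acts on actin was not tested. The actin histidine methyltransferase SETD3 fell by 0.30, with an SE of 0.107 (limma adjusted p = 0.0291). The SETD3 call was lost in 5 of 7 fits that left out arrays (adjusted p up to 0.102).

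Under TGF-β1 few of these genes passed. Of all genes, 2.74% were called higher and 2.84% lower at 8 h, and 4.42% and 5.67% at 24 h, and the median of all genes was -0.01 at both times. At 8 h TEAD1 had a log2 difference of -0.71 ± 0.155 (limma adjusted p = 0.0233) and coronin CORO1B, which remodels branched filaments, of -0.45 ± 0.106 (adjusted p = 0.0314). Each of these calls was lost in 6 of 7 fits that left out arrays, with adjusted p up to 0.0865 for TEAD1 and 0.209 for CORO1B. At 24 h CORO1B stood at -0.45 ± 0.106 (adjusted p = 0.0220) and profilin 2, PFN2, a monomer-binding protein, at -0.52 ± 0.123 (adjusted p = 0.0224). TEAD1 stood at -0.50 (adjusted p = 0.0701; 0.0453 with the replicate block in the P2 arrays) and TEAD4 at -0.22, neither called. The CORO1B call was lost in 4 of 7 such fits (adjusted p up to 0.138) and that of PFN2 in 5 of 7 (up to 0.0848).

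None of the 13 contractile partners was called by limma at 8 h or at 24 h (2 and 1 at an unadjusted p under 0.05), with medians of 0.06 and -0.07. The smallest p-values belonged to VCL (-0.24) and SMTN (0.31) at 8 h and to CALD1 (-0.27) and MYH9 (0.28) at 24 h. With the replicate block in the P2 arrays the CALD1 difference at 24 h was called (adjusted p = 0.0488). The same held for the 12 folding genes, with 0 called and 0 at an unadjusted p under 0.05 at each time, and medians of 0.10 and 0.07. Among 15 nucleators 0 were called at either time (0 and 1 at an unadjusted p under 0.05), and ARPC1A had differences of 0.44 and 0.57. MSRB2 stood at -0.56 (adjusted p = 0.0574) at 8 h and -0.49 (adjusted p = 0.0688) at 24 h, and each was called with the replicate block in the P2 arrays (adjusted p = 0.0113 and 0.0118).

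**Figure D5:**
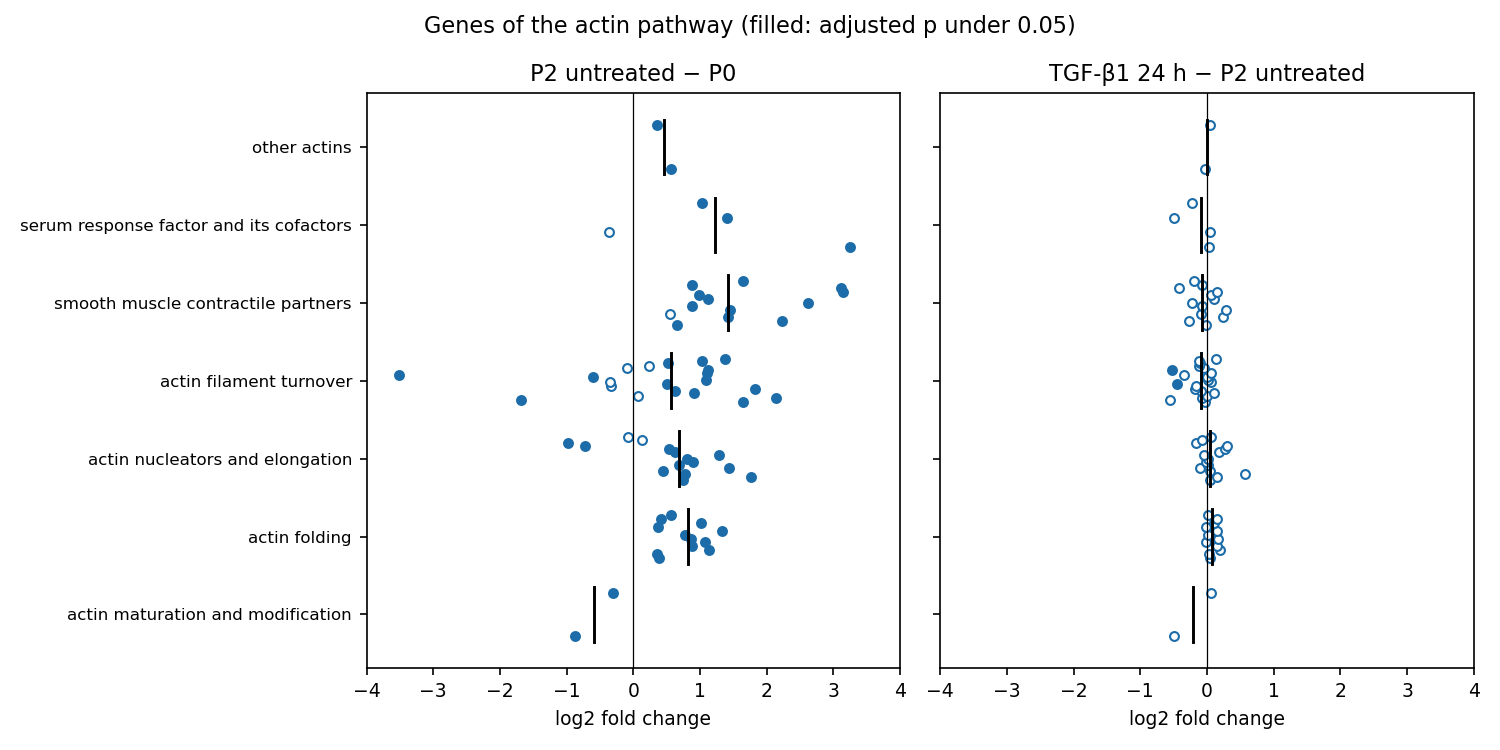
Log2 fold change (horizontal axis) of each tested gene of the actin lists (vertical axis) for untreated P2 against P0 (left) and for TGF-β1 at 24 h against untreated cells (right); filled points passed an adjusted p under 0.05, and black bars are list medians. In culture most contractile and folding genes lie to the right of 0, GSN lies at -3.51, and under TGF-β1 nearly all points are unfilled and close to 0.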

How the data were processed

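Total RNA from 12 samples (4 groups of 3 biological replicates, per the labels) was hybridised to porcine 3' arrays. The authors deposited a table of log2 expression for each probe set and array, made with GCRMA per the submitters' processing notes. The GCRMA version and settings, the scan dates and the processing dates were not given in the sources used here. No further normalisation was applied (array medians lay within 0.0734 of each other). Of 23999 probe sets, 10069 carried 1 symbol, 198 several and 13732 none; 64 reporter controls were left out. Probe sets with a log2 value over 4 in at least 3 arrays were tested (17638, giving 6014 genes by the brightest probe set with 1 symbol).

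A model with a mean for each of the 4 groups was fitted by limma 3.58.1 (R 4.3.3; lmFit, eBayes; 8 residual and 3.75 prior degrees of freedom), two-sided, with Benjamini-Hochberg adjustment over all tested probe sets in each comparison and calls at an adjusted p under 0.05. Errors are standard errors from limma with 3 arrays per group; the number of arrays limits the precision, and as the labels do not say whether replicates came from separate animals, p-values measure the spread between these samples. The fit was tested on simulated data, with noise drawn independently for each array and so without the pairing of the P2 arrays. It recovered 18 to 26% of simulated log2 changes of 0.5, 70 to 92% of those of 1 and 96 to 98% of those of 2. Many small changes can therefore go uncalled. Replicate numbers paired the P2 groups, as the data show and the labels do not state: deviations from group means of same-numbered arrays correlated at 0.348 to 0.679 in all 9 pairs, others at 0.0796 at most, and P0 arrays with same-numbered P2 arrays at -0.0916 to 0.0158, so the numbers do not pair P0. Blocked values stand beside the calls of named genes they change.

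The actin genes, lists and tests were chosen with earlier results of these data known. Genes named from a list are up to 4 called genes with the largest change in a comparison. Where none was called, they are the 2 with the smallest p. The comparisons are those of untreated P2 with P0 and of 8 h and 24 h with untreated cells. MYOCD, MYH9, MYH10 and PDCL3 were named besides for untreated P2 against P0, with their values known. Marker genes named are those below the control level in every array, and others chosen with their values known, among them VIM, CNN1, CDH5 and MYL3. Alternatives were other filters, normalisations, moderation, blocks, arrays and probe sets. Sequences, promoter motifs and genome positions were not used here.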

Additional observations from a re-analysis of the deposited data

How the results depend on the processing

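ACTA2, both ACTG2 probe sets and ACTC1 were refitted under each alternative; of these values 357 kept direction and call, 11 gained a call, 1 lost it and 15 changed sign, and the cause of each change was not tested. With the mean of its probe sets ACTG2 gave 0.45 for untreated P2 against P0, 0.12 for 8 h against P0 and 0.02 for 24 h against P0. With median centring ACTA2 gave 0.03 at 8 h against untreated cells. For 24 h against untreated cells the replicate block over 12 arrays, the block in the P2 arrays and trend with robust moderation left ACTG2 at -0.78 and called it (limma adjusted p = 0.0339, 0.0121 and 0.0466), and the blocks left ACTC1 at -2.75 and called it (0.0287 and 0.0144). ACTC1 at 8 h against P0, at 2.03, was called with the block over 12 arrays (0.0251), although the numbers do not pair P0. It was also called with only the arrays compared (0.0411). Low values raised to the control level gave ACTC1 2.05 for untreated P2 against P0 (0.10). ACTC1 was not tested with the filter at log2 6. The block changed no other call of the actin probe sets.

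Leaving out arrays gave ranges of -0.06 to 0.06 for ACTA2 at 8 h against untreated cells; for the dimmer ACTG2 probe set, -0.46 to 0.04 at 8 h and -0.41 to 0.38 at 24 h against untreated cells and -0.23 to 0.56 at 24 h against 8 h; for ACTC1, -1.72 to 0.27 at 8 h and -3.42 to -1.68 at 24 h against untreated cells, 1.11 to 2.65 at 8 h against P0 and -0.16 to 0.40 at 24 h against P0. ACTB against untreated cells ranged from -0.18 to 0.10 at 8 h and -0.20 to 0.08 at 24 h, and ACTG1 at 24 h from 0.00 to 0.06; median centring and quantile normalisation gave ACTB 0.02 at 8 h, and quantile normalisation 0.02 at 24 h.

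Over the whole table, 894 probe sets were called at 8 h and 1498 at 24 h against untreated cells, and 41 between 24 h and 8 h. The block in the P2 arrays gave 2200, 3519 and 430, only the arrays compared 519, 631 and 0 (1532 at an unadjusted p under 0.05 in limma), and leaving out arrays 265 to 702, 762 to 1347 and 4 to 44. For 24 h against 8 h, no filter gave 25, the block over 12 arrays 109, trend with robust moderation 72 and raised low values 23. Of the counts of called genes by list, 319 stayed within 1.5 times and 17 did not. Values near the control level limit what can be said of ACTC1.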
